A study of Mus musculus with 2 samples.

Results

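The 10 genes described here act on collagen after it has been translated. Serpinh1 encodes the procollagen chaperone of the endoplasmic reticulum, P4ha1 and P4ha2 encode catalytic subunits of prolyl 4-hydroxylase, Plod1, Plod2 and Plod3 encode lysyl hydroxylases, Bmp1 encodes a C-propeptide proteinase, and Lox, Loxl1 and Loxl2 encode lysyl oxidases. Serpinh1 is a chaperone and no enzyme, although it is grouped with the enzymes of the pathway. They were chosen by symbol, and they are 10 of the 28006 features in the count matrices. Every one was measured and passed the filter on low counts.

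Single-cell RNA-seq (10x Genomics Chromium v3) was performed on cells sorted from the femurs of 2 mice, with 1 library a mouse. Both mice were Cxcl12(GFP/+); Cxcl12-iCreER; R26R(tdTomato/+) and were analyzed at postnatal day (P) 28 after tamoxifen at P21. They form 1 group, so the comparisons are between cell classes within these mice. All cells therefore come from animals in which GFP replaces 1 allele of Cxcl12, and tdTomato marks the descendants of cells in which a Cxcl12 BAC transgene drove the inducible Cre. The cells are called GFP+ marrow mesenchymal cells in one label, whereas the extraction notes speak of tdTomato+ cells, and they are taken here as a GFP+ sort. Osteoblasts and periosteal cells could enter the data only through that sort, so they may differ from those of the whole bone.

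Collagen chains are hydroxylated on proline and lysine in the endoplasmic reticulum, fold into a triple helix that the Serpinh1 chaperone binds, and are exported as procollagen. Outside the cell, Bmp1 and related proteinases trim the C-propeptide, and lysyl oxidases convert lysines and hydroxylysines into the aldehydes from which crosslinks form. Osteoblasts secrete type I collagen as the organic matrix of bone, and reticular cells of the marrow are stromal cells that surround the sinusoids.

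Barcodes were retained as cells when 1000 or more genes were detected and mitochondrial transcripts made up no more than 15% of the unique molecular identifiers (UMIs; Mouse #1: 2750 cells, Mouse #2: 4582 cells), with a median of 12966.5 and 12190 UMIs per cell. The libraries shared 7 cell barcodes. Cells were clustered without the 10 genes, and clusters were named by their markers. Reticular-like cells numbered 1246 in Mouse #1 and 2423 in Mouse #2, pre-osteoblast-like cells 426 and 801, osteoblast-like cells 13 and 63, and periosteal-like cells 81 and 237. Each of the first 3 classes raised 8 of its 8 markers, that is, held them at 1.5 or more times the mean of the other clusters and in 10% or more of its own cells, and periosteal-like cells raised 7 of 8. Of the osteoblast markers, Bglap was at 81067 and 48612 UMIs per 1000000 UMIs (CPM) in osteoblast-like cells, but Dmp1 was at 11.7 and 8.86 CPM, below its 37.9 and 21.6 CPM in pre-osteoblast-like cells, and Phex at 80 and 52.8 CPM was below its 97.1 and 117 CPM in reticular-like cells. Despite the sort, clusters named by hematopoietic markers held 628 and 652 cells and those named by endothelial markers 152 and 138, and these served as background. A further cluster led by Elane (88 and 57 cells) raised 6 of 7 myeloid markers, but the naming rule left it unnamed and outside this background.

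UMIs of each gene were summed per mouse and class, because cells of one mouse are not replicates. Collagen dominated the osteoblast-like sums: the fibrillar collagen chains took 20.9% and 21.4% of their UMIs, against 0.496% and 0.644% in reticular-like, 0.712% and 1.23% in pre-osteoblast-like and 3.57% and 3.46% in periosteal-like cells. Levels in the 4 skeletal classes are therefore given as scaled CPM, that is, CPM corrected by the trimmed mean of M-values (TMM), whose factors were 0.717 and 0.689 for osteoblast-like cells and lay between 1.07 and 1.18 for the others. With plain library sizes the median log2 fold change of all genes between osteoblast-like and pre-osteoblast-like cells was -0.90, and with TMM it was -0.16. Values are given for Mouse #1 first and Mouse #2 second, and the smallest group, the 13 osteoblast-like cells of Mouse #1, still held 512529 UMIs. In the other class comparisons the shift with plain library sizes was -0.80 between osteoblast-like and reticular-like cells and -0.15 between periosteal-like and pre-osteoblast-like cells.

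In the first step, from reticular-like to pre-osteoblast-like cells, the genes went separate ways. Bmp1 rose, Lox, Loxl2, P4ha1 and Plod3 fell, and Serpinh1, P4ha2, Plod1, Plod2 and Loxl1 did not pass the test. Of all 12217 genes tested, 12.3% were called higher and 11.6% lower, against 1 and 4 of the 10 genes. In the second step, from pre-osteoblast-like to osteoblast-like cells, 8 of the 10 genes rose (16.3% of all genes rose) and Loxl1 fell (18.3% of all genes fell), whereas Plod3 did not pass the test. The median log2 fold change of the 10 genes was -0.22 in the first step (all genes 0.03) and 1.35 in the second (all genes -0.16).

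**Figure D1:**
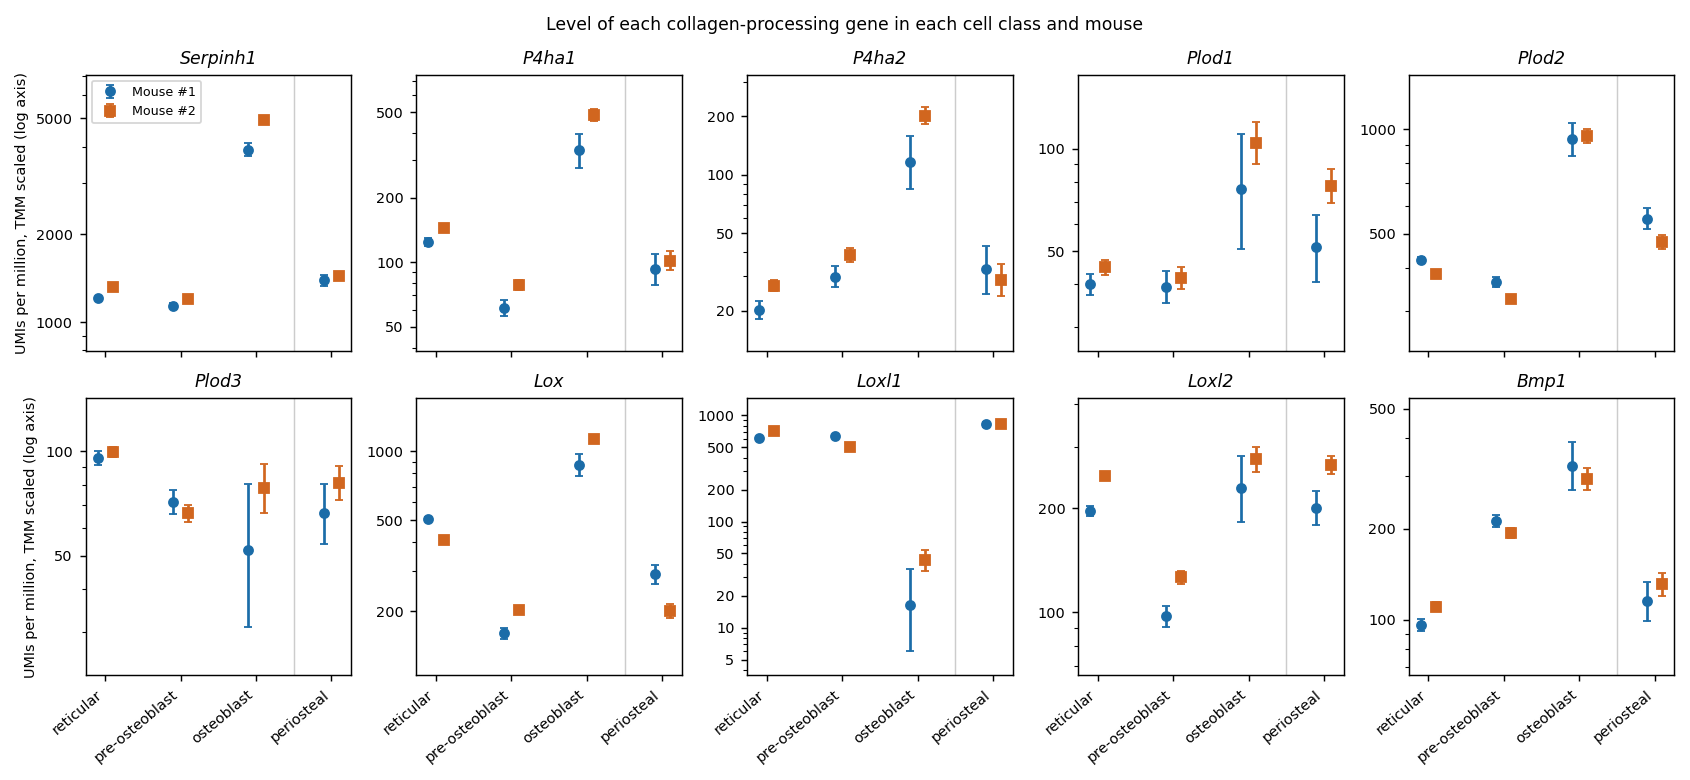
Scaled CPM of each of the 10 genes (log axis) in the reticular-like, pre-osteoblast-like, osteoblast-like and periosteal-like cells of each mouse, with 1 point a mouse. Serpinh1, P4ha1, P4ha2, Plod1, Plod2, Lox, Loxl2 and Bmp1 stand highest in osteoblast-like cells within each mouse. For Plod1 and Loxl2 these values overlap those of other classes across the mice. Loxl1 stands lowest in osteoblast-like cells at 16.3 and 43.3.

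The chaperone Serpinh1 was at 1208 and 1324 scaled CPM in reticular-like cells, 1137 and 1199 in pre-osteoblast-like cells and 3909 and 4946 in osteoblast-like cells. The osteoblast-like values were above every other value, and the reticular-like and pre-osteoblast-like values lay close together without overlap. Serpinh1 rose 3.79-fold from pre-osteoblast-like to osteoblast-like cells (log2 fold change 1.92, SE 0.17, adjusted p = 4.12e-05 by edgeR's quasi-likelihood test). Its change in the first step was -0.12 (SE 0.16, adjusted p = 0.663). When each cell was thinned to 2000 UMIs, a Serpinh1 UMI was found in 89.5% and 91.3% of reticular-like, 84.5% and 89.8% of pre-osteoblast-like and 100% and 100% of osteoblast-like cells, and in 5.10% and 14.9% of hematopoietic cells.

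P4ha1, one of the catalytic subunits that hydroxylate proline, dipped before it rose. It was at 124 and 144 scaled CPM in reticular-like cells, 61.0 and 78.4 in pre-osteoblast-like cells and 332 and 483 in osteoblast-like cells, and no 2 classes overlapped. P4ha1 fell by 0.94 on the log2 scale in the first step (SE 0.19, adjusted p = 0.00732), and rose by 2.57 in the second (SE 0.21, adjusted p = 2.78e-05). The first of these calls needed both mice: it was lost without the reticular-like sum of Mouse #2 (log2 fold change -0.84, adjusted p = 0.0642) and without the pre-osteoblast-like sum of Mouse #1 (-0.78, adjusted p = 0.0513).

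P4ha2, which encodes the alternative catalytic subunit, did not dip. Its scaled CPM was 20.2 and 26.8 in reticular-like, 30 and 38.7 in pre-osteoblast-like and 117 and 202 in osteoblast-like cells, an order that held in both mice. Its log2 fold change was 0.55 in the first step (SE 0.22, adjusted p = 0.105), which the fit with the mouse as a block called (0.55, adjusted p = 0.0217, where 14.9% of all genes were called higher). It rose by 2.31 in the second step (SE 0.24, adjusted p = 0.000117).

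Serpinh1, P4ha1 and P4ha2 rose in the second step and Plod3 did not pass the test. The 250 bases upstream of the RefSeq starts of these 4 genes are shown. They come from the RefSeq promoter table (GRCm38.p6), which held 5 of the 10 genes, and each is written 5′ to 3′ on the strand of its gene. Capitals mark ACGTG and GCGTG on either strand (CACGT and CACGC in reverse), the core letters to which hypoxia-inducible factors bind, since prolyl 4-hydroxylase subunits are textbook hypoxia targets. The windows are chr7:99353240-99353489 on the minus strand for Serpinh1, chr10:59323046-59323295 on the plus strand for P4ha1, chr11:54100674-54100923 on the plus strand for P4ha2 and chr5:136986769-136987018 on the plus strand for Plod3. The RefSeq start of P4ha2 lies inside the gene as GENCODE vM21 places it, with its first base at 54100095, so that window lies within the GENCODE span.
Serpinh1: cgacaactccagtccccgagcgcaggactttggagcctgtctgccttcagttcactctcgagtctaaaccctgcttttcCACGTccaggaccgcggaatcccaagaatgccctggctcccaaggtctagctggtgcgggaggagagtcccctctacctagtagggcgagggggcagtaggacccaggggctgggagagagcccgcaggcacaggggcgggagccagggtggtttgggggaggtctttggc
P4ha1: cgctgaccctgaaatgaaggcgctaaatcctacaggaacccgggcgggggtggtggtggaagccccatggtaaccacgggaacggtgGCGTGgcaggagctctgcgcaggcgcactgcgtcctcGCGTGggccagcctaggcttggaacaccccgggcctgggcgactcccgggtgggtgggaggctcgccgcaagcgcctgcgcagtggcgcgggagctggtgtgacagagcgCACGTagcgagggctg
P4ha2: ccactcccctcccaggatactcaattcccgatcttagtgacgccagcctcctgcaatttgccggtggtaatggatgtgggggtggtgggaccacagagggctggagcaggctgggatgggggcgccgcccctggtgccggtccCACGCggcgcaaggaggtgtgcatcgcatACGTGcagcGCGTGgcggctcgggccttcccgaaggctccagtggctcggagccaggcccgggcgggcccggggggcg
Plod3: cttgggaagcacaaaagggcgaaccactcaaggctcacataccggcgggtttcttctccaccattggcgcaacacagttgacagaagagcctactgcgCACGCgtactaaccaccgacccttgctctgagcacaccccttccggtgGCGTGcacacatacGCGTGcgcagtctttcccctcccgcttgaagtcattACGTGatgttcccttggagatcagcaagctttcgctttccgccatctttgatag
The Serpinh1 window held 1 match, CACGT at -171 to -167, counted from -1 at the base before the start. The P4ha1 window held CACGT at -16 to -12 and GCGTG at -163 to -159 and at -126 to -122. The P4ha2 window held ACGTG at -78 to -74, CACGC at -107 to -103 and GCGTG at -69 to -65. The Plod3 window held the most matches of the 5 in the table. These were ACGTG at -54 to -50, CACGC at -152 to -148 and GCGTG at -104 to -100 and at -90 to -86. The Plod1 window, which is not printed, held GCGTG at -20 to -16. Plod1 also rose in the second step. The first transcribed bases from its RefSeq start were found in no GENCODE vM21 transcript of the gene. Either core was present in 38.6% of the 32851 windows of the same length in the table, so a match is common. No binding was measured, and a match is a description of the letters only.

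Of 10 listed hypoxia targets that were tested, 0 rose and 6 fell from reticular-like to pre-osteoblast-like cells (median log2 fold change -0.72). From pre-osteoblast-like to osteoblast-like cells 2 rose and 2 fell (median 0.02). Among all genes, 12.3% were called higher and 11.6% lower in the first step, and 16.3% and 18.3% in the second. The counts of the second step are thus close to the shares of all genes. In the first step Adm, which encodes a vasodilator peptide, fell from 30.9 and 38.8 to 9.21 and 8.38 scaled CPM, and Slc2a1, a glucose transporter, fell from 32.6 and 25.8 to 10.5 and 9.70. In the second step the angiogenic factor Vegfa fell further, from 275 and 211 to 57.2 and 93.3, while the kinase Pdk1 rose from 3.54 and 4.46 to 29.9 and 19.1. Without the osteoblast-like sum of Mouse #2, Pgk1, a glycolytic kinase gene, lost its rise (adjusted p = 0.261) and Slc2a1 its fall (adjusted p = 0.0634) in the second step. Whether the changes of these targets bear on P4ha1 was not tested.

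The 3 lysyl hydroxylases did not move as 1 group. Plod2, which hydroxylates the telopeptide lysines, was at 421 and 385 scaled CPM in reticular-like, 364 and 326 in pre-osteoblast-like and 937 and 955 in osteoblast-like cells. It rose 2.74-fold in the second step (log2 fold change 1.46, SE 0.15, adjusted p = 0.000114) after -0.22 in the first (adjusted p = 0.318). Plod1, which hydroxylates lysines of the helix, was level at 40 and 44.9 in reticular-like and 39.3 and 41.7 in pre-osteoblast-like cells, which overlapped, and stood at 76.2 and 104 in osteoblast-like cells. Its rise of 1.24 (SE 0.21, adjusted p = 0.00169) was lost without the osteoblast-like sum of Mouse #2 (0.90, adjusted p = 0.146) and with plain library sizes (0.49, adjusted p = 0.0594).

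Plod3, which also glycosylates collagen, was the exception. Its scaled CPM was 95.9 and 99.8 in reticular-like, 71.6 and 66.2 in pre-osteoblast-like and 51.7 and 78.3 in osteoblast-like cells. The osteoblast-like values lay on both sides of the pre-osteoblast-like ones and below the reticular-like ones. Plod3 fell by 0.51 on the log2 scale in the first step (SE 0.15, adjusted p = 0.0329), a call that each of the 4 leave-one-out fits lost (adjusted p from 0.0724 to 0.187). In the second step its change was 0.04 (SE 0.18, adjusted p = 0.899), and its sign turned with plain library sizes (-0.70, adjusted p = 0.00729). Between reticular-like and osteoblast-like cells it was -0.47 (SE 0.18, adjusted p = 0.0558), which the fit with the mouse as a block called (-0.48, adjusted p = 0.0453, where 23.1% of all genes were called lower). In this comparison 8 of 15 alternative settings called Plod3 lower. Among them were fits without the filter on low counts (-0.53, adjusted p = 0.0169) and without the highest doublet scores (-0.54, adjusted p = 0.0267).

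Bmp1, which removes the C-propeptide of fibrillar procollagens and so allows fibrils to form, was the one gene that rose in the first step. It was at 96.2 and 111 scaled CPM in reticular-like, 212 and 194 in pre-osteoblast-like and 324 and 293 in osteoblast-like cells, a rising order in both mice with no overlap. The first rise was 1.96-fold (log2 fold change 0.97, SE 0.14, adjusted p = 0.0011) and held in all 4 leave-one-out fits. The second was 1.51-fold (0.59, SE 0.15, adjusted p = 0.0121), was lost without the pre-osteoblast-like sum of Mouse #2 (0.53, adjusted p = 0.0682) and changed sign with plain library sizes (-0.14, adjusted p = 0.419). In plain CPM, Bmp1 was at 236 ± 18.7 (SD, n = 2 mice) in pre-osteoblast-like and 217 ± 21.5 in osteoblast-like cells. Cells with a Bmp1 UMI after thinning made up 21.6% and 22.2% of reticular-like, 43.9% and 39.7% of pre-osteoblast-like and 46.2% and 33.3% of osteoblast-like cells, against 1.12% and 3.85% of hematopoietic cells.

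Lox, the enzyme for which the lysyl oxidase family is named, followed the dip of P4ha1. Its scaled CPM was 505 and 407 in reticular-like, 160 and 203 in pre-osteoblast-like and 871 and 1136 in osteoblast-like cells, without overlap. Lox fell 2.51-fold in the first step (log2 fold change -1.33, SE 0.23, adjusted p = 0.00284) and rose 5.56-fold in the second (2.48, SE 0.24, adjusted p = 7.06e-05). Both calls held in every leave-one-out fit. The share of thinned cells with a Lox UMI moved the same way, from 59.7% and 53.1% through 26.8% and 30% to 76.9% and 74.6%, with 2.71% and 5.23% in hematopoietic cells.

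Loxl1, a lysyl oxidase best known for elastic fibres, fell in the step in which 8 of the 10 genes rose. It was at 609 and 712 scaled CPM in reticular-like and 635 and 506 in pre-osteoblast-like cells, which overlapped (log2 fold change -0.21, SE 0.23, adjusted p = 0.564). In osteoblast-like cells it was at 16.3 and 43.3, from 6 and 84 UMIs, far below every other skeletal value. It fell by 4.0 on the log2 scale from pre-osteoblast-like to osteoblast-like cells (SE 0.30, adjusted p = 2.01e-05), and the call held under each of 15 alternative settings. Within a single mouse the log2 ratio was -5.28 in Mouse #1 and -3.55 in Mouse #2.

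The remaining Loxl1 was at the level of background. Osteoblast-like cells held 11.7 and 29.8 plain CPM of Loxl1, below the 33.5 and 75.7 CPM of hematopoietic cells and the 32.4 and 75.0 CPM of endothelial cells. Barcodes with 1 to 100 UMIs, which hold free RNA, carried 409 and 456 CPM of Loxl1. After thinning, 7.69% and 7.94% of osteoblast-like cells had a Loxl1 UMI, against 69.8% and 77.0% of reticular-like, 74.2% and 65.2% of pre-osteoblast-like and 4.15% and 7.69% of hematopoietic cells. Without thinning the share in osteoblast-like cells was 38.5% and 57.1%, at a median of 41863 and 46370 UMIs per cell. Expression of Loxl1 in osteoblast-like cells was thus not detectable above the other cell types at this depth.

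Loxl2, which also crosslinks basement membrane collagen, dipped like Lox. Its scaled CPM was 196 and 249 in reticular-like, 97.4 and 126 in pre-osteoblast-like and 229 and 277 in osteoblast-like cells, so the first and last classes overlapped. It fell by 0.99 on the log2 scale in the first step (SE 0.20, adjusted p = 0.00699) and rose by 1.20 in the second (SE 0.21, adjusted p = 0.00232). The fall was lost without the reticular-like sum of Mouse #2 (-0.81, adjusted p = 0.0665) or the pre-osteoblast-like sum of Mouse #1 (-0.82, adjusted p = 0.0503). The rise was lost without the osteoblast-like sum of Mouse #2 (1.02, adjusted p = 0.0542) and with plain library sizes (0.47, adjusted p = 0.0706).

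**Figure D2:**
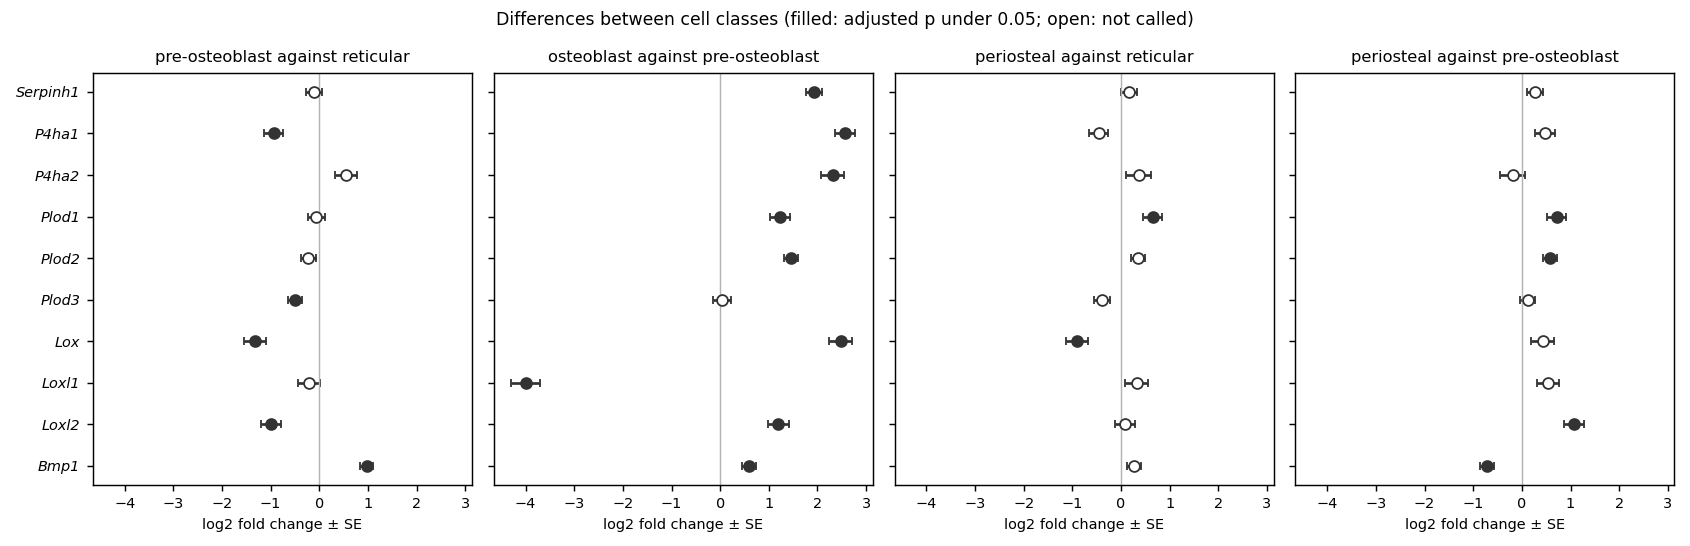
Log2 fold change with its SE for the 10 genes in 4 comparisons (pre-osteoblast-like against reticular-like, osteoblast-like against pre-osteoblast-like, periosteal-like against reticular-like and against pre-osteoblast-like), with filled points for adjusted p under 0.05. Filled points number 5, 9, 2 and 4, and Loxl1 lies at -4.0 in the osteoblast-like panel.

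Compared end to end, osteoblast-like cells had 7 genes higher than reticular-like cells and Loxl1 lower, where 21.8% of all genes were called higher and 23.2% lower. This comparison shares its samples with the 2 steps and is no separate evidence. P4ha2 was 7.26-fold higher (log2 fold change 2.86, SE 0.24, adjusted p = 1.75e-05), Serpinh1 3.5-fold, P4ha1 3.10-fold, Bmp1 2.96-fold, Plod2 2.35-fold, Plod1 2.25-fold and Lox 2.21-fold. Loxl1 was 18.6-fold lower (adjusted p = 6.11e-06), whereas Loxl2 did not pass the test (0.21 on the log2 scale, SE 0.21, adjusted p = 0.46). With plain library sizes Lox (0.45, adjusted p = 0.09) and Plod1 (0.47, adjusted p = 0.0682) lost their calls, Plod3 was called lower, and Loxl2 turned to -0.48. Without the osteoblast-like sum of Mouse #2, Plod1 also lost its call (0.84, adjusted p = 0.142) and Plod3 was called lower (-0.93, adjusted p = 0.0359).

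Because the genes of a family moved differently, its makeup changed. Of all UMIs of the 5 lysyl oxidase genes, Lox made up 37.0% and 28.6% in reticular-like, 16.9% and 22.9% in pre-osteoblast-like and 75.5% and 75.9% in osteoblast-like cells. Loxl1 made up 44.7% and 49.9%, then 67.0% and 57.2%, then 1.42% and 2.89%. The summed level of the family was 1363 and 1426 scaled CPM in reticular-like, 948 and 884 in pre-osteoblast-like and 1154 and 1497 in osteoblast-like cells, so the reticular-like and osteoblast-like sums overlapped. The share of a gene does not depend on the scaling of the libraries. The shares are UMI counts of different transcripts at their 3′ ends and do not rank the proteins.

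**Figure D3:**
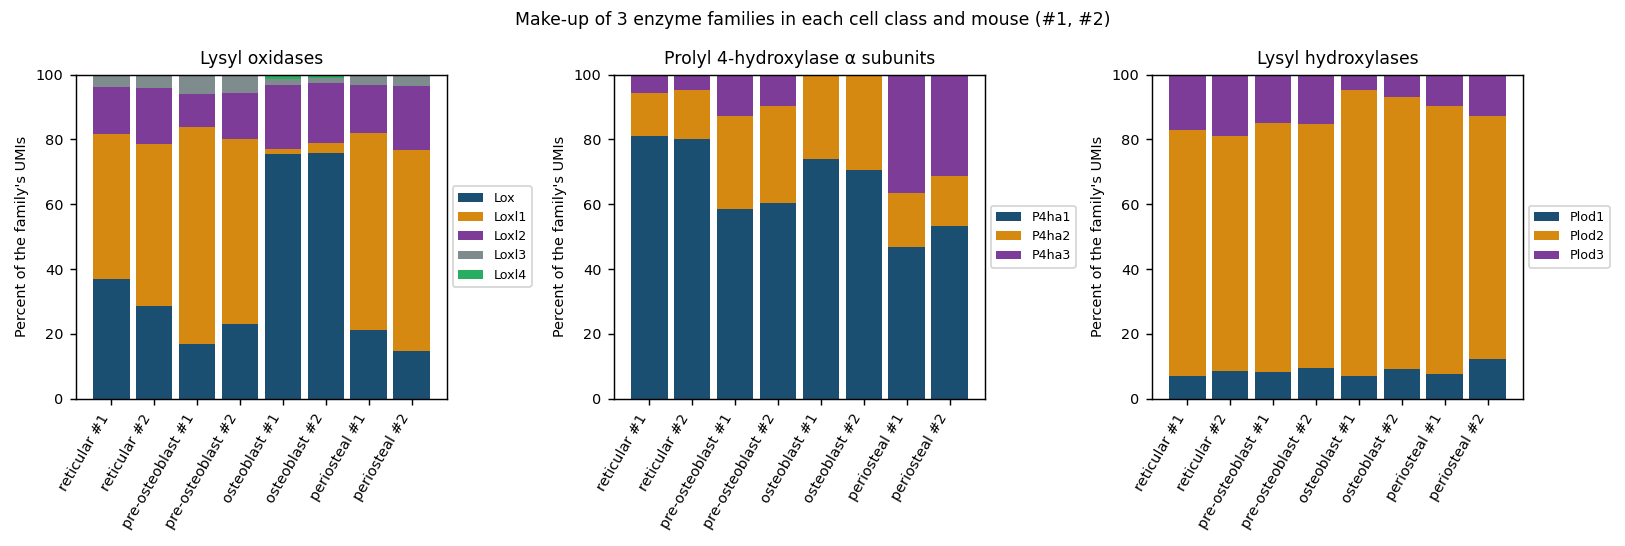
Percent of the UMIs of each family (lysyl oxidases, prolyl 4-hydroxylase alpha subunits, lysyl hydroxylases) that came from each gene, by cell class and mouse. Loxl1 shrinks from 44.7% and 49.9% in reticular-like cells to 1.42% and 2.89% in osteoblast-like cells, and P4ha3 holds 36.5% and 31.4% of its family in periosteal-like cells and 0 UMIs in osteoblast-like cells.

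Among the alpha subunits of prolyl 4-hydroxylase, P4ha1 made up 81.0% and 80.1% of the UMIs in reticular-like, 58.6% and 60.4% in pre-osteoblast-like and 73.9% and 70.5% in osteoblast-like cells. P4ha2 made up 13.2% and 15%, then 28.8% and 29.8%, then 26.1% and 29.5%. P4ha3, the third subunit gene, was at 8.87 and 8.80 scaled CPM in reticular-like and 13.2 and 12.7 in pre-osteoblast-like cells, and had 0 UMIs in osteoblast-like cells of both mice. Against a floor of 3 UMIs over both osteoblast-like sums (1.3 scaled CPM), P4ha3 was at least 9.98-fold lower there than in pre-osteoblast-like cells and at least 6.80-fold lower than in reticular-like cells. Among the lysyl hydroxylases, Plod3 fell from 17.2% and 18.9% of the UMIs in reticular-like to 4.86% and 6.88% in osteoblast-like cells, and Plod2 made up 75.6% and 72.7% and then 88.0% and 84.0%. Bmp1 held at least 93.7% of the UMIs of Bmp1, Tll1 and Tll2 in every class.

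The 8 genes that rose into osteoblast-like cells rose less than their substrate. Col1a1, the alpha 1 chain of type I collagen, went from 580 and 971 scaled CPM in reticular-like through 1940 and 4035 in pre-osteoblast-like to 171629 and 174245 in osteoblast-like cells. Per 1000 UMIs of Col1a1 and Col1a2, Serpinh1 went from 444 and 336 through 252 and 146 to 14.2 and 17.0. Lox went from 186 and 104 through 35.4 and 24.7 to 3.16 and 3.90, and Plod2 from 155 and 97.8 through 80.5 and 39.7 to 3.40 and 3.28. Each of the 10 genes was lower per collagen UMI in osteoblast-like than in reticular-like and pre-osteoblast-like cells of both mice. Loxl1 stood out with 224 and 181 in reticular-like, 141 and 61.6 in pre-osteoblast-like and 0.0593 and 0.149 in osteoblast-like cells. Free RNA held 0.497% and 1.04% of its UMIs as type I collagen, more than the 0.309% and 0.442% of reticular-like cells. Its part in the collagen count of reticular-like cells was not tested.

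**Figure D4:**
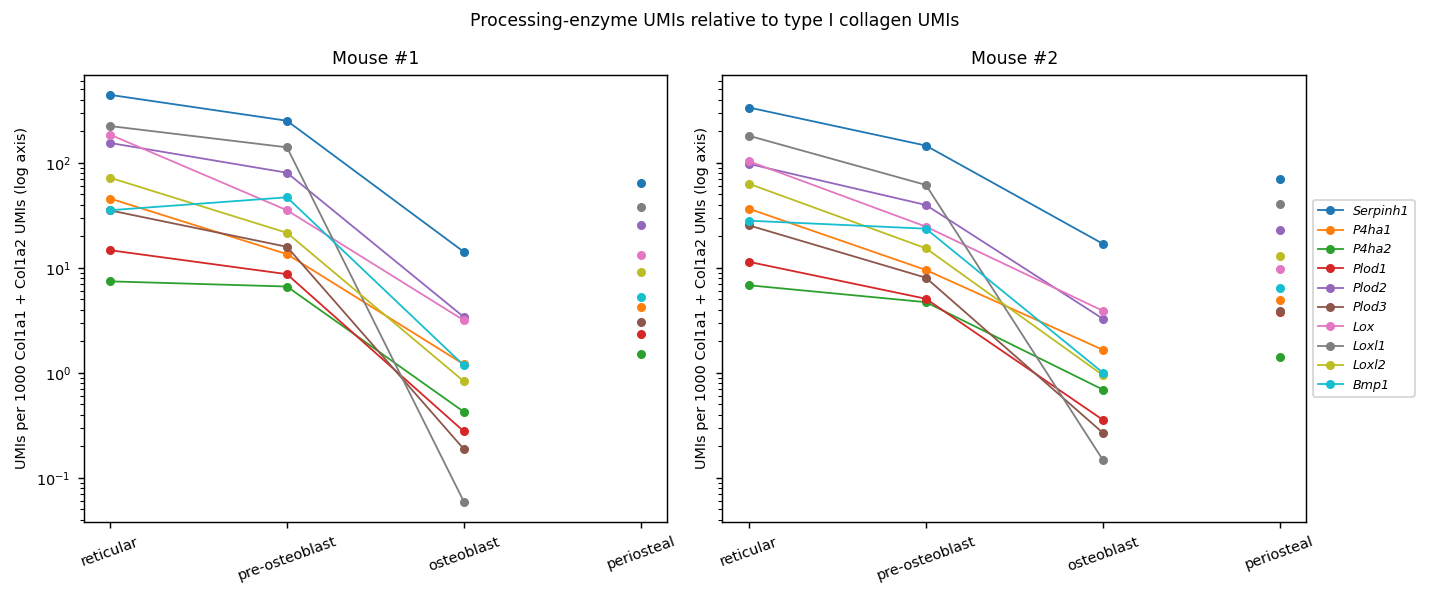
UMIs of each gene per 1000 UMIs of Col1a1 and Col1a2 (log axis) by cell class, with 1 panel a mouse. The osteoblast-like values lie lowest for each gene, with Serpinh1 at 14.2 and 17.0 and Loxl1 at 0.0593 and 0.149.

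Other genes of collagen maturation were taken from fixed lists. Of 11 genes of hydroxylation, folding and glycosylation that were tested, 2 rose and 1 fell in the first step, and 8 rose and 2 fell in the second (median log2 fold change 0.01 and 1.45). Of all genes, 12.3% were called higher and 11.6% lower in the first step, and 16.3% and 18.3% in the second. In the second step the prolyl 3-hydroxylase P3h1 rose from 68.0 and 68.2 to 278 and 333 scaled CPM, and P3h4, a partner of the enzymes that modify helical lysines, rose from 56.3 and 56.2 to 343 and 395. Fkbp10, a folding isomerase needed for telopeptide lysine hydroxylation, rose in both steps, from 140 and 150 through 231 and 222 to 732 and 905 (log2 fold change 0.65 and 1.86, adjusted p = 0.0122 and 3.15e-05). Its call in the first step was lost in each of the 4 leave-one-out fits (log2 fold change from 0.60 to 0.69). P4ha3, the other gene that rose in that step, also lost its call in each of the 4 (0.52 to 0.58). DESeq2 did not call P4ha3 there either (0.51, adjusted p = 0.0573). P3h2, another prolyl 3-hydroxylase, fell from 63.5 and 70.3 to 9.68 and 10.5 in the first step (log2 fold change -2.72, adjusted p = 1.81e-05).

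Of 5 tested genes for the export of procollagen, 0 passed the test in the first step, and 4 rose and 1 fell in the second (median 2.03). The shares of all genes were 12.3% higher and 11.6% lower in the first step, and 16.3% and 18.3% in the second. Creb3l1, a membrane-bound transcription factor that regulates secretory genes in osteoblasts, rose from 53.2 and 66.6 to 564 and 700 scaled CPM, and the coat genes Sec23a and Sec24d rose from 33.5 and 35.9 to 128 and 182 and from 35.2 and 46.5 to 120 and 194. Tmem38b, an endoplasmic reticulum ion channel gene, fell by 0.69 on the log2 scale (SE 0.23, adjusted p = 0.0422), a call that the fit with the mouse as a block lost (adjusted p = 0.067).

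Of 6 tested genes of propeptide removal other than Bmp1, 0 rose and 2 fell in the first step, and 2 rose and 0 fell in the second. Among all genes, 12.3% were called higher and 11.6% lower in the first step, and 16.3% and 18.3% in the second. With only 6 genes, these counts are small. The N-propeptide proteinase Adamts2 fell from 336 and 441 to 274 and 241 (log2 fold change -0.59, SE 0.18, adjusted p = 0.0422) in the step in which Bmp1 rose. The call was lost without the reticular-like sum of Mouse #2 (-0.39, adjusted p = 0.322) and without the pre-osteoblast-like sum of Mouse #1 (-0.69, adjusted p = 0.0833) or Mouse #2 (-0.50, adjusted p = 0.228). Adamts14, the other proteinase gene that fell, lost its call without the reticular-like sum of Mouse #2 (adjusted p = 0.0568). Pcolce, which encodes an enhancer of Bmp1, rose in the second step, from 318 and 445 to 814 and 935 scaled CPM (log2 fold change 1.20, adjusted p = 0.00131). Of the other lysyl oxidases, Loxl3 fell from 52.4 and 48.4 to 21.8 and 22.2 in the second step (adjusted p = 0.000745), and Loxl4 rose from 3.30 and 0.783 to 16.3 and 18.0 (adjusted p = 0.00348). Both calls were lost without the osteoblast-like sum of Mouse #2 (adjusted p = 0.0522 for Loxl3 and 0.141 for Loxl4). With plain library sizes all these second-step values shift down with the median of all genes.

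The fibrillar collagen chains, which are the substrates, were called higher for 5 of 11 (12.3% of all genes) and lower for 0 (11.6%) in the first step. In the second step they were called higher for 8 (16.3% of all genes) and lower for 2, which is close to the 18.3% of all genes. Of the 5, Col11a2 lost its call without the reticular-like sum of Mouse #1 (1.18, adjusted p = 0.154) and without the pre-osteoblast-like sum of Mouse #2 (0.66, adjusted p = 0.476). Col2a1, the cartilage chain, was at 697 and 1430 scaled CPM in osteoblast-like cells against 29.0 and 23.2 in pre-osteoblast-like cells. The summed markers of chondrocytes were at 11.7 and 4.61 CPM there, with Acan, Matn1 and Matn3 at 0 UMIs. Col5a3 was the chain that fell most in the second step, from 340 and 214 to 0 and 7.73, a step in which Loxl1 also fell.

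Between periosteal-like and reticular-like cells, 1 of the 10 genes was called higher and 1 lower, close to the shares of all genes. Against reticular-like cells, Plod1 was higher and Lox lower, where 12.2% of all genes were called higher and 8.91% lower, and the other 8 genes did not pass the test. Plod1 was at 51.4 and 77.9 scaled CPM against 40 and 44.9 (log2 fold change 0.65, SE 0.19, adjusted p = 0.0373). Lox was at 289 and 201 against 505 and 407 (-0.90, SE 0.23, adjusted p = 0.0207). The groups did not overlap for either gene. Both calls were lost without the reticular-like sum of Mouse #1 (Lox -0.74, adjusted p = 0.133) and without the periosteal-like sum of Mouse #2 (Lox -0.67, adjusted p = 0.16, and Plod1 0.26, adjusted p = 0.503). The call of Plod1 was also lost without the reticular-like sum of Mouse #2 (0.72, adjusted p = 0.105), without the reticular-like cluster led by heat shock genes (0.61, adjusted p = 0.0537), with plain library sizes (0.58, adjusted p = 0.0525) and with only these classes in the fit (0.66, adjusted p = 0.0556). The fit with the mouse as a block added P4ha1 (-0.47, adjusted p = 0.041, where 10.0% of all genes were called lower, against -0.46 and 0.138 without it). Without the heat shock cluster, P4ha1 was at -0.14 (adjusted p = 0.656).

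Against pre-osteoblast-like cells, Loxl2, Plod1 and Plod2 were higher in periosteal-like cells and Bmp1 lower, where 12.1% of all genes were called higher and 8.19% lower. Loxl2 was at 200 and 267 scaled CPM against 97.4 and 126 (log2 fold change 1.07, SE 0.20, adjusted p = 0.00591), and Bmp1 at 115 and 131 against 212 and 194 (-0.71, SE 0.14, adjusted p = 0.00765). Plod2 was at 554 and 475 against 364 and 326 (0.58, SE 0.15, adjusted p = 0.024), and Plod1 was higher by 0.71 on the log2 scale (adjusted p = 0.0277). No leave-one-out fit kept the call of Plod2, and 1 of 4 kept that of Plod1. Loxl2 lost its call without the periosteal-like sum of Mouse #2 (0.83, adjusted p = 0.0619) and Bmp1 without that of Mouse #1 (-0.61, adjusted p = 0.0686). The block added P4ha1 (0.48, adjusted p = 0.0425, where 13.3% of all genes were called higher).

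Serpinh1 and Loxl1 in periosteal-like cells stood at 1393 and 1435 and at 821 and 836 scaled CPM, and neither differed from pre-osteoblast-like cells beyond the test (adjusted p = 0.269 and 0.141). Serpinh1 reached 64.0 and 69.5 UMIs per 1000 of type I collagen and Loxl1 37.7 and 40.5, between the reticular-like and osteoblast-like ratios. Periosteal-like cells were set apart by P4ha3, at 72 and 59.6 scaled CPM, which was higher than in reticular-like cells (log2 fold change 2.88, SE 0.15, adjusted p = 1.03e-05) and in pre-osteoblast-like cells (2.33, adjusted p = 2.76e-05). It was at least 50.6-fold lower in osteoblast-like than in periosteal-like cells. Pcolce was also higher than in reticular-like cells, at 1076 and 920 against 378 and 350 (1.45, adjusted p = 0.000763), as was Creb3l1, at 147 and 125 against 67.4 and 59.1 (1.09, adjusted p = 0.00236). Col3a1, the chain of type III collagen, was at 9564 and 9046 against 702 and 778.

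The order of the classes by scaled CPM differed between the genes. For Bmp1 it was osteoblast-like, pre-osteoblast-like, periosteal-like and reticular-like, from high to low, and the last 2 classes did not differ beyond the test (log2 fold change 0.26, adjusted p = 0.246). For Lox it was osteoblast-like and reticular-like, followed by periosteal-like and pre-osteoblast-like cells, where the last 2 classes overlapped (0.42, SE 0.23, adjusted p = 0.226). For Loxl1, periosteal-like cells were highest in both mice and osteoblast-like cells lowest.

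Reticular-like cells were 4 clusters, led by Tnfsf11 and Ccl2, by Bmp4 and Rspo2, by Cxcl9, and by the heat shock genes Hspb1 and Hspa1a. P4ha1 was at 300 and 284 plain CPM in the heat shock cluster, against 126 and 131 in the Tnfsf11 cluster, 107 and 98 in the Bmp4 cluster and 37.7 and 84.2 in the Cxcl9 cluster. The Cxcl9 values came from only 6 and 15 UMIs. Serpinh1, itself a heat shock gene, was at 1742 and 1864 in that cluster, against 1298 and 1338 in the Tnfsf11 cluster. Bmp1 was at 107 and 117 there and at 101 and 123 in the Tnfsf11 cluster. Clusters of one library are not replicates of a condition, and their differences were not tested.

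The heat shock cluster held 172 and 623 cells, and the summed stress genes Fos, Egr1, Jun, Hspa1a, Hspa1b and Atf3 reached 6819 and 5498 CPM in the reticular-like sums. They were at 2517 and 2887 CPM in pre-osteoblast-like, 905 and 2852 in osteoblast-like and 5883 and 2946 in periosteal-like cells. Without the cluster, the fall of P4ha1 in the first step was smaller and still called (log2 fold change -0.62, adjusted p = 0.0385), and the other 4 calls of that step were kept.

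At a finer clustering, pre-osteoblast-like cells divided into a cluster led by Kcnk2 (195 and 242 cells) and a cluster led by Spp1 (204 and 527 cells). Loxl1 was at 910 and 723 plain CPM in the Kcnk2 cluster and 659 and 550 in the Spp1 cluster, and Bmp1 at 272 and 288 against 229 and 204. P4ha1 and Plod2 went the other way, at 54.1 and 66.6 against 83.5 and 97.1 and at 367 and 306 against 467 and 392. In both mice Loxl1 and Bmp1 were thus higher in the Kcnk2 cluster and P4ha1 and Plod2 higher in the Spp1 cluster, as a description of these cells.

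**Figure D5:**
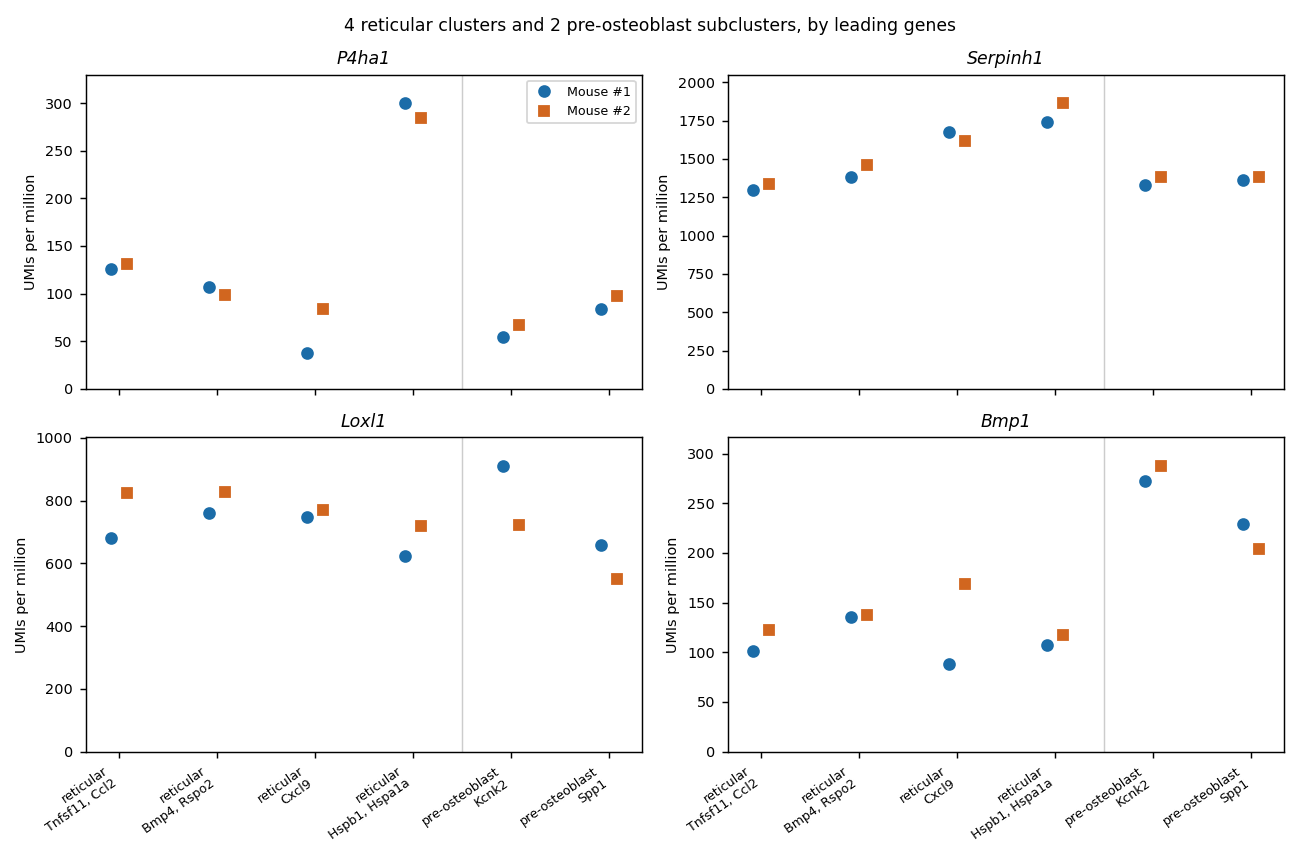
Plain CPM of P4ha1, Serpinh1, Loxl1 and Bmp1 in the 4 reticular-like clusters and the 2 pre-osteoblast-like clusters, with 1 point a mouse. P4ha1 stands at 300 and 284 in the heat shock cluster, and Bmp1 is higher in both pre-osteoblast-like clusters than in each of the reticular-like clusters of the same mouse.

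Reticular-like cells were also compared by the lineage mark. Cells counted as tdTomato+ had more tdTomato per 10000 UMIs than 99% of the hematopoietic cells in the same mouse. This gave 500 and 978 positive and 746 and 1445 negative cells. None of the 10 genes passed edgeR's quasi-likelihood test (0.0% of 12190 genes were called, 465 at an unadjusted p under 0.05), and DESeq2 also called 0 of the 10. The log2 fold changes lay between -0.31 and 0.11. P4ha2 was at 20.8 and 25 plain CPM in positive and 24.5 and 33.6 in negative cells (log2 fold change -0.31, SE 0.18, adjusted p = 0.994). With the mouse as a block, P4ha2 alone of the 10 was called (-0.33, adjusted p = 0.0178), where 2.72% of all genes were called lower. The block raised the number of genes at an unadjusted p under 0.05 from 465 to 2057. The absence of calls thus holds only for fits that leave out the pairing by mouse.

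The genes most like 9 of the 10 were found from the Pearson correlation of log2(CPM + 1) over 22 sums of clusters by mouse, among 8640 genes. The sums share their libraries and the osteoblast-like cells weigh heavily, so the values describe these clusters only. Serpinh1 was most like P3h4 (r = 0.91), Rcn1 (0.90) and Tmem167 (0.90), and P4ha2 like Gbf1 (0.87), Mia3 (0.85) and Sec23ip (0.83). Lox was most like Fibin (0.93), Gpr153 and Ikbip (both 0.91), Loxl2 like Mmp23 (0.89), and Bmp1 like Efs (0.92). Loxl1 reached the closest match of these 9, with Wisp2, Cxcl14 and Plxdc2 (all 0.98). Plod2 was most like Zfp9 (0.96), P4ha1 like Mical3 (0.83) and Plod1 like Cd82 (0.86).

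In the genome build of the files (mm10), GENCODE vM21 places Serpinh1 on chromosome 7 (99345376 to 99353239, minus strand), P4ha1 on chromosome 10 (59323296 to 59373304, plus strand) and P4ha2 on chromosome 11 (54100095 to 54131665, plus strand). Loxl1 (58287738 to 58313186, minus strand) and Plod2 (92542223 to 92608428, plus strand) both lie on chromosome 9. Bmp1 (70474558 to 70520234, minus strand) and Loxl2 (69609068 to 69695834, plus strand) lie less than 1 megabase apart on chromosome 14. Plod1, Plod3 and Lox are on chromosomes 4, 5 and 18. UMIs were counted per gene over its exons near the 3′ end, so they do not resolve isoforms.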

How the data were processed

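The authors aligned the reads with Cell Ranger 3.0.0 to mm10 with the reporter sequences added, and deposited raw UMI counts for all 6794880 barcodes and 28006 features per library (54940400 and 88790688 UMIs), per the file headers and the study's methods. The study's cell filter (1000 genes, 15% mitochondrial UMIs) was applied. Cells of both mice were clustered together (scanpy 1.11.5; 2000 variable genes, 30 components, Leiden resolution 0.5) without the 10 genes and the listed collagen genes, which left 20 clusters, named by fixed markers. Scrublet marked 6 and 7 cells as doublets, too few to rely on, so an alternative removed the 60 and 168 highest scores. UMI counts were summed per mouse and class, and 8 sums (4 classes, 2 mice) were fitted with edgeR 4.0.16 in R 4.3.3 (quasi-likelihood test, TMM, filterByExpr, Benjamini-Hochberg adjustment over all genes, threshold 0.05). Pairing follows from classes of one mouse sharing the animal (correlation of deviations 0.0572 to 0.310), and the mouse as a block was an alternative. Between tdTomato-positive and tdTomato-negative reticular-like cells the correlation was higher, at 0.514. Other alternatives were DESeq2 1.42.0, other scaling, filters and clusterings, and leaving out each sum.

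In simulated data for the first comparison (11996 genes), the test recovered 73% of 2-fold and 97% of 4-fold changes. The simulated counts had the same dispersion for every gene, a mean profile shared by all classes apart from the planted changes, and no effect of the mouse. These rates therefore need not hold for the real sums. Thinning left out 6 and 21 cells. Up to 4 called genes a list and comparison are named, those with the largest change. The 10 genes and the lists were chosen with earlier results of these data known. Cluster names rest on the same cells, though not on the same genes. P-values of the class comparisons rest on a spread estimated over the 4 classes of 2 mice and moderated across genes. They do not measure the spread of a single gene between the mice in the classes compared. The main fit also takes the sums of one mouse as independent. Counting intervals and floors cover counting error only.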

Additional observations from a re-analysis of the deposited data

How the results depend on the processing

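Leaving out 1 sum at a time gave 2 to 4 of the 10 genes called between pre-osteoblast-like and reticular-like cells (5 with all sums), 7 to 9 between osteoblast-like and pre-osteoblast-like cells (9), 8 in each fit between osteoblast-like and reticular-like cells (8, with Plod3 in place of Plod1 when the osteoblast-like sum of Mouse #2 was left out), 0 to 2 between periosteal-like and reticular-like cells (2), 1 to 2 between periosteal-like and pre-osteoblast-like cells (4) and 0 by tdTomato (0). A lone sum is assumed there to vary like the other classes. Between periosteal-like and reticular-like cells 4 genes were called without the filter on low counts, 1 with library sizes only and 1 without the heat shock cluster, the last 2 being added after the data were seen. The replicate block by mouse, whose pairing comes from the shared animals, called 1 gene by tdTomato in place of 0 and changed no other call of the 10 genes than those given above. Directions turned for genes that had not been called and for Bmp1. With library sizes only, between osteoblast-like and pre-osteoblast-like cells Plod3 was at -0.70 and Bmp1 at -0.14, and Loxl2 was at -0.48 between osteoblast-like and reticular-like cells. This setting shifts all genes down in the collagen-rich osteoblast-like sums. Plod3 in the same step was at -0.016 without the filter on low counts and -0.014 without the highest doublet scores, and -0.47 to 0.24 with a mouse or sum left out. Ranges over such leave-outs also spanned 0 for Plod1 (-0.15 to 0.016) and Loxl1 (-0.49 to 0.06) in the first step, Loxl2 between periosteal-like and reticular-like cells (-0.16 to 0.26), and P4ha2 (-0.42 to 0.13), Plod3 (-0.11 to 0.29) and Lox (-0.016 to 0.86) between periosteal-like and pre-osteoblast-like cells. The cause was not tested. Over all fold changes recomputed, 1917 values kept their direction and side of the threshold or, where no test was run, moved by no more than the spread between mice, while 75 lost a call, 20 gained one, 12 turned and 13 moved further. Thinning to 1000 in place of 2000 UMIs a cell moved 35 of 40 shares of cells, since a share falls with depth.

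The 13 osteoblast-like cells of Mouse #1 set the depth for the low genes, with 6 UMIs of Loxl1, 19 of Plod3 and 28 of Plod1.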

Other observations

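Outside the skeletal classes, the 2 endothelial-like clusters stood apart in Lox, Loxl1, Loxl2, Plod1, Plod2, P4ha1 and P4ha2 but overlapped in Serpinh1, Plod3 and Bmp1. In the cluster led by Fabp4 and Stab2 (28 and 28 cells), Loxl2 was at 230 and 214 plain CPM and Plod1 at 139 and 161 CPM. In the cluster led by Ly6c1 (124 and 110 cells), Loxl2 was at 13.2 and 17.8 CPM and Plod1 at 101 and 88.3 CPM. P4ha2 was at 4.34 and 7.0 CPM in the former, from only 2 and 3 UMIs. It was at 29.0 and 32.9 CPM in the latter, from 44 and 50 UMIs. In plain CPM, Plod1 over all endothelial-like cells, at 110 and 104, was above the 47.9 ± 3.46 (SD, n = 2 mice) of reticular-like cells and the 63.1 ± 12.0 of osteoblast-like cells. Plod2, at 41.5 and 53.4, was below the 455 ± 32.7 of reticular-like cells. These differences were not tested.

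An unnamed cluster of cycling cells led by Acta2 and Spp1 (66 and 84 cells), which raised 8 of the 8 pre-osteoblast markers, had 187 and 205 CPM of Bmp1, 219 and 212 of Lox and 514 and 498 of Loxl1. Counting it as pre-osteoblast-like, a choice made after the data were seen, left 5, 9 and 4 of the 10 genes called in the comparisons with reticular-like, osteoblast-like and periosteal-like cells.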
